A study of Mus musculus with 4 samples.

Results

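Neurotrophic and axon guidance factors are secreted proteins, or receptors for them, that keep neurons alive and steer growing axons. The 9 genes described here were chosen by name from the gene rows of the deposited matrices: the neurotrophin *Ntf3*, the neurotrophic ligand *Gdnf*, the co-receptor *Gfra2*, the class 3 semaphorins *Sema3a*, *Sema3b*, *Sema3c*, *Sema3d* and *Sema3e*, and the Slit ligand *Slit2*. They are 9 of 28692 gene rows, and all 9 were found in every matrix. Mesenchymal stromal cells (MSC) of the lamina propria, the layer of connective tissue under the gut epithelium, had been sorted from the small intestine and from the colon of untreated female C57BL6/Nrj mice aged 8-10 weeks and read by droplet single-cell RNA-seq. Each intestine gave 2 libraries, one per experiment with 3 pooled mice, and both intestines shared strain, age and the absence of treatment. The outer muscle layers had been taken off, and the sort kept live Itgb1+ cells that lacked CD45, Ter119, CD31, BP3, EpCAM and L1CAM.

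Enteric neurons and glia send fibres into the lamina propria, where fibroblasts (FB) and smooth muscle cells (SMC) are possible sources of such signals. NT-3, the product of *Ntf3*, acts through the receptor TrkC and supports sensory and enteric neurons. GDNF signals through the kinase RET with a GFRα co-receptor and is required for the enteric nervous system to form, while GFRα2, the product of *Gfra2*, is the preferred co-receptor of neurturin. Class 3 semaphorins bind neuropilins and plexins and mostly repel axons, and several of them also act on blood vessels. SLIT2 repels axons by binding ROBO receptors.

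The 4 matrices held 34983 barcodes, with between 14341443 and 52269372 unique molecular identifiers (UMIs, one per captured mRNA molecule) per library. After filtering, 26653 cells fell into 5 marker-defined classes, namely 5271 PDGFRαhi FB, 5547 CD81+ FB, 14218 PDGFRαlo CD81- FB, 1354 SMC and 263 pericytes. Clusters were made without the 9 genes and without their related genes, so no class was defined by them. Replicates 1 were the deeper libraries, with medians of 6948 and 8809 UMIs per cell against 2688 and 3854.5 in replicates 2, and library pairs shared 0 to 69 barcodes. The summed level of the 8 PDGFRαhi FB markers was 2787 to 4225 CPM (UMIs per 1000000 UMIs of the class) in that class and at most 519 in the others. The sum of the 10 PDGFRαlo CD81- FB markers did not separate that class from colonic PDGFRαhi FB or small intestinal SMC. In colonic PDGFRαhi FB it was 6130 and 4545 CPM, against 6241 and 4336 in the colonic class itself. In small intestinal SMC it was 11803 and 9361 CPM, against 8297 and 7274 in the small intestinal class and 1463 and 1100 in colonic SMC. Most of the small intestinal SMC sum was *Adamdec1*, at 11135 and 8519 CPM against 7220 and 6131 in the class. Each of the other markers was lower in small intestinal SMC than in the class of the same library. The 6 SMC markers summed to 17242 and 10806 CPM in small intestinal SMC and to 31374 and 23822 in colonic SMC. Sums of the 5 glial, 5 epithelial and 4 mesothelial markers stayed at or below 18.3 CPM in the 4 larger classes, and no UMI of *Sox10* was found in PDGFRαhi or CD81+ FB.

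Levels are given as CPM of the class sum, in the order replicate 1 then replicate 2. Levels of different genes were not compared, since capture at a transcript end differs between genes. Between the intestines, UMI sums of a class were tested with edgeR's quasi-likelihood test, with Benjamini-Hochberg adjustment over all genes tested. A gene was called when its adjusted p was below 0.05 and its log2 fold change was above 1.5 or below −1.5. With 2 libraries per intestine an exact permutation test of 1 gene cannot give a p below 0.3333. Every log2 fold change is colon minus small intestine, ± its standard error (SE), and intervals on counts cover counting error only.

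Which class holds the highest level of a gene is a description and was not tested. *Sema3b*, *Sema3c*, *Sema3d* and *Slit2* were highest in CD81+ FB in all 4 libraries. Of 13980 genes tested over all MSC, 25.1% were likewise highest in 1 class throughout, counting PDGFRαhi FB, CD81+ FB, PDGFRαlo CD81- FB and SMC. The other 5 genes changed their highest class between libraries. *Ntf3* was led by SMC in 3 libraries and by PDGFRαhi FB in colon replicate 2, which stood there at 1.00 times the SMC level. *Gdnf* was highest in PDGFRαhi FB of both small intestinal libraries and in SMC of both colonic ones, and *Gfra2* was highest in PDGFRαlo CD81- FB of the small intestine and CD81+ FB of the colon.

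**Figure D1:**
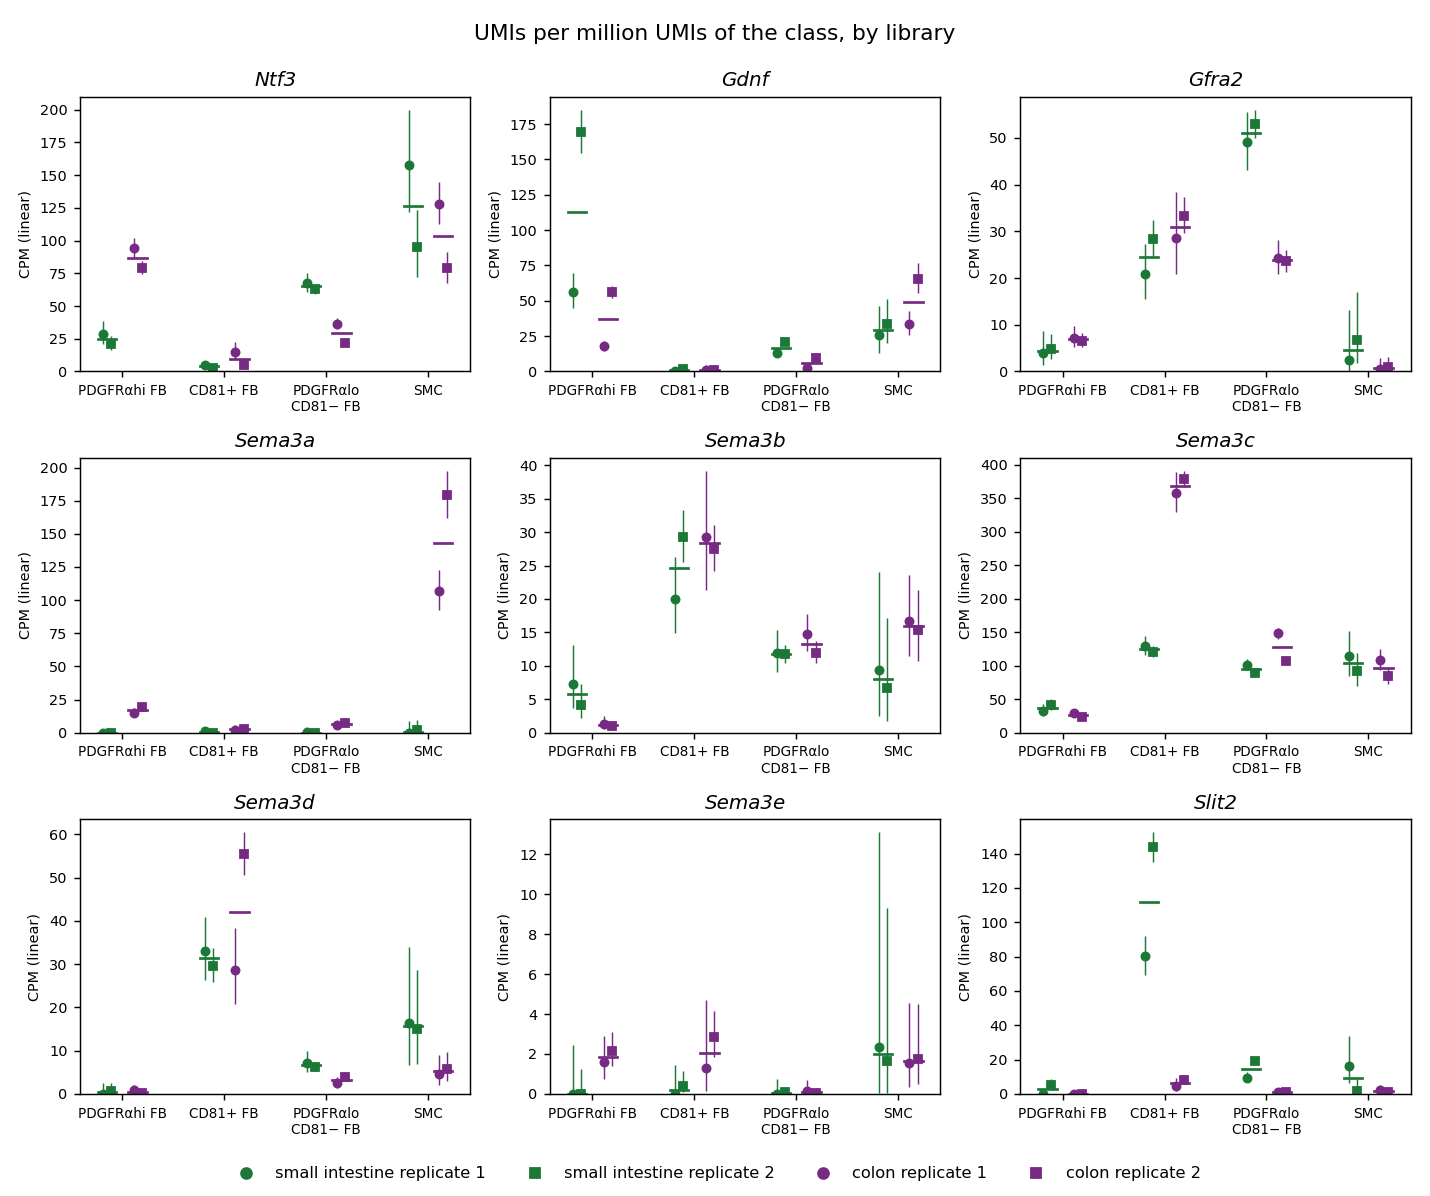
Level of each of the 9 genes (CPM of the class sum, vertical axis, 1 panel per gene with its own scale) in the 4 larger classes of small intestinal and colonic MSC, without pericytes. Points are the 4 libraries with 95% counting intervals and bars are means of 2 libraries; *Sema3a* stands at 107 and 179 CPM in colonic SMC with 1 UMI in small intestinal SMC, and *Slit2* at 80.1 and 143.7 CPM in small intestinal CD81+ FB.

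Between the intestines, 2 of the 9 genes were called in at least 1 class, *Sema3a* higher in the colon and *Slit2* lower. In PDGFRαhi FB 1 of the 6 tested genes was called higher (*Sema3a*, against 0.957% of all genes tested in that class) and 0 were called lower (0.774% of all genes), with 2 and 1 at an unadjusted p under 0.05 and 2 and 0 called by DESeq2. In CD81+ FB 0 of 7 were called higher (0.325% of all genes) and 1, *Slit2*, was called lower (0.623%). There, 1 gene was higher at an unadjusted p under 0.05 and DESeq2 called 0 higher. In PDGFRαlo CD81- FB 1 of 8, *Sema3a*, was called higher (0.597% of all genes) and 0 lower (0.566%), although 4 were lower at an unadjusted p under 0.05 and DESeq2 called 1 of them, *Slit2*. In SMC 1 of 6, *Sema3a*, was called higher (0.932% of all genes) and 0 lower (2.12%), with 1 lower at an unadjusted p under 0.05 and 0 by DESeq2. Summed over all MSC, edgeR called 0 of 9 higher (0.143% of all genes) and 0 lower (0.172%), with 2 genes in each direction at an unadjusted p under 0.05, while DESeq2 called *Sema3a* higher and *Slit2* lower. The shares of all genes are for the main calls only, so the counts at an unadjusted p or by DESeq2 have none beside them.

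*Ntf3* (chr6:126101412-126166910, minus strand, GRCm38) stood higher in the colon in PDGFRαhi FB and lower in PDGFRαlo CD81- FB, and its total over all MSC overlapped between the intestines. In PDGFRαhi FB its level was 28.7 and 21.0 CPM in the small intestine against 94.4 and 79.2 in the colon, so the colonic libraries lay above both small intestinal ones. The log2 fold change of 1.96 ± 0.29 just missed the threshold (adjusted p = 0.052). It was called by DESeq2 (adjusted p = 0.00019) and with the replicate block, which is given below with its limits. Without either colonic library it was called, and without either small intestinal library it was not. Such a fit leaves 1 library in an intestine, so its spread comes from the other intestine alone. In PDGFRαlo CD81- FB the order of the intestines was the reverse, at 67.4 and 62.8 CPM in the small intestine against 36.6 and 21.8 in the colon (log2 fold change −1.19 ± 0.29, adjusted p = 0.22). The test of the difference itself, the class by intestine term with the library as a block, gave 3.22 ± 0.21 on the log2 scale for PDGFRαhi against PDGFRαlo CD81- FB (adjusted p = 4.8e-09).

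Over all MSC *Ntf3* stood at 48.0 and 46.3 CPM in the small intestine and at 64.2 and 38.5 CPM in the colon, and these ranges overlapped (log2 fold change 0.02 ± 0.27, adjusted p = 1.00). The class that supplied its UMIs was not the same in the 2 intestines. PDGFRαhi FB held 9.05% and 3.80% of the *Ntf3* UMIs of small intestinal MSC but 51.0% and 62.3% of those of colonic MSC, while PDGFRαlo CD81- FB held 71.4% and 91.2% against 24.1% and 23.7%. PDGFRαhi FB were also 13.3% and 10.2% of the small intestinal cells and 30.1% and 30.1% of the colonic cells, so these shares combine the number of cells and the level in them. SMC carried 157.4 and 95.2 CPM in the small intestine and 127.8 and 78.8 in the colon, with overlapping ranges (log2 fold change −0.28 ± 0.37, adjusted p = 0.85). In CD81+ FB *Ntf3* stayed at or below 14.9 CPM in every library (log2 fold change 1.13 ± 0.67, adjusted p = 0.71).

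Within the classes *Ntf3* was uneven. Colonic PDGFRαhi FB comprised 2 clusters, cluster 1 led by *Wif1*, *Bmp3* and *Sox6* and cluster 4 led by *Il1rl1*, *Dmp1* and *Nrg1*. All 8 class markers were detected in cluster 4 but none was among its 10 leading genes. *Ntf3* stood at 183.6 and 123.6 CPM in cluster 4 against 26.9 and 34.0 CPM in cluster 1, the latter close to the 28.7 and 21.0 CPM of the single small intestinal PDGFRαhi cluster. With cluster 4 alone, the colonic difference was called (log2 fold change 2.86 ± 0.32, adjusted p = 0.012), and with cluster 1 alone it was 0.39 ± 0.32 (adjusted p = 0.91). In the small intestinal PDGFRαlo CD81- FB the level was 150.9 and 121.9 CPM in the cluster led by *Mmp10* and *Agt*, which also held the highest *Fgfr2* level, and 42.6 to 52.2 CPM in the other 2 clusters of the class. Colonic cluster 7, the highest in *Fgfr2* of the colonic PDGFRαlo clusters, likewise held the most *Ntf3* of them, at 100.8 and 63.4 CPM against 6.63 to 31.6 in the other 3. It was led by *Cxcl9*, and a small intestinal cluster led by *Cxcl9* was left out of the classes, as described under the processing.

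**Figure D2:**
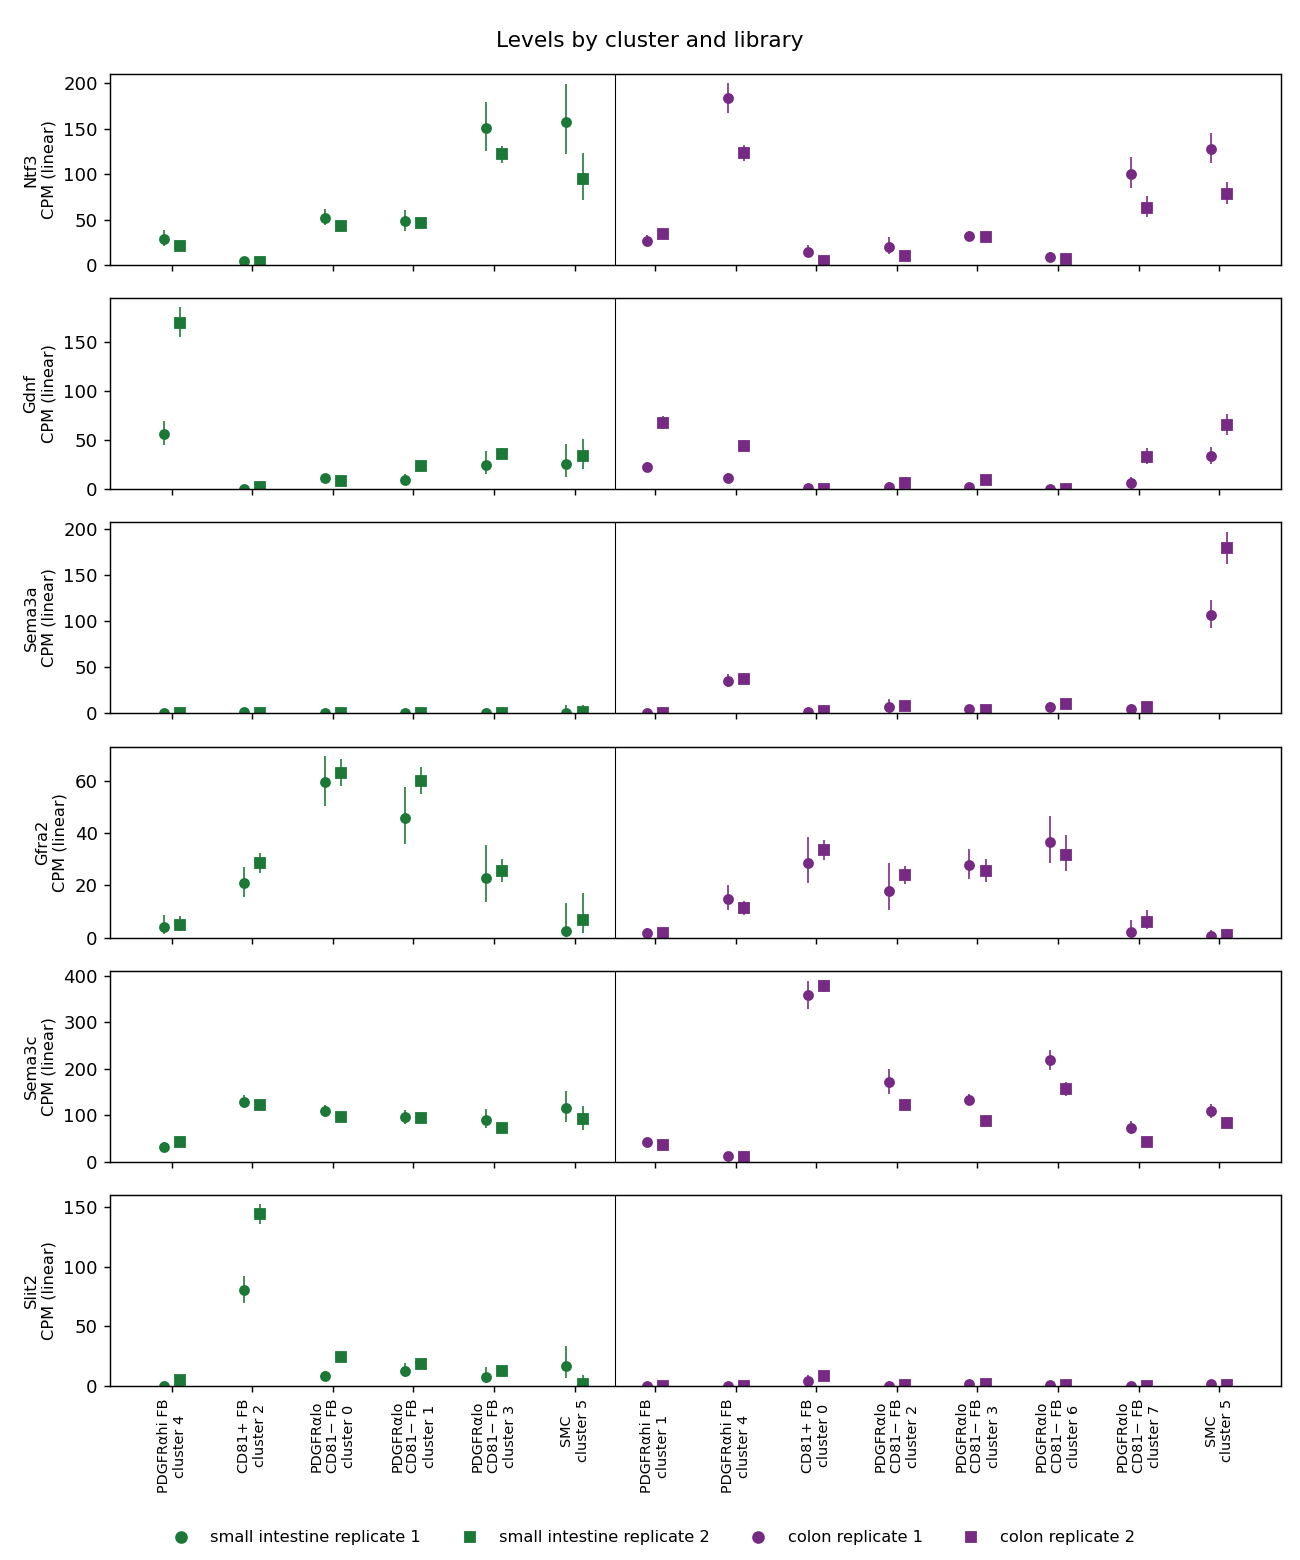
Level (CPM, vertical axis) of 6 genes in each fibroblast and SMC cluster of the small intestine and colon, with 1 point per library. *Ntf3* and *Sema3a* lie higher in colonic PDGFRαhi cluster 4 than in cluster 1, in which *Sema3a* had 0 and 6 UMIs, and *Gdnf* was lower in cluster 4 than in cluster 1 of the same library.

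RefSeq gives *Ntf3* 2 start sites on GRCm38.p6, and the 250 bases before each are printed because the intestines differed in opposite senses in 2 fibroblast classes and the UMI sums do not tell its transcripts apart. The first window, chr6:126166745-126166994, straddles the start of the GENCODE gene, and the second, chr6:126164961-126165210, lies inside it. Both are on the minus strand and are written 5′ to 3′, with capitals at matches, on either strand, of the TATA box TATAAA, of the Sp1 site GGGCGG, of the CCAAT box or of the CArG box, which serum response factor binds. These 4 motifs were found in 12.4%, 32.7%, 33.8% and 1.47% of 32817 RefSeq promoters of the same length.
Ntf3 first start: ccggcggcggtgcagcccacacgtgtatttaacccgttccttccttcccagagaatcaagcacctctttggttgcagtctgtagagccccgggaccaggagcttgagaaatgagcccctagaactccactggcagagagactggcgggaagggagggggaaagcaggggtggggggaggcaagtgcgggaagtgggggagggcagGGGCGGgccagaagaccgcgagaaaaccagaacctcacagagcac
Ntf3 second start: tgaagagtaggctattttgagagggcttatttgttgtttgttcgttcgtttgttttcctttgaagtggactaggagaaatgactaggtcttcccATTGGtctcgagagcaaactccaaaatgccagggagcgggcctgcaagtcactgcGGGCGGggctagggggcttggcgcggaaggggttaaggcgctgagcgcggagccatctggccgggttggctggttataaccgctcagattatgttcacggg
The first window held 1 GGGCGG, and the second held 1 GGGCGG and 1 CCAAT, which reads as ATTGG here. Neither held TATAAA or a CArG box.

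*Gdnf* (chr15:7810846-7837575, plus strand) reached its highest levels in PDGFRαhi FB and SMC, and its level differed between libraries of 1 intestine. In PDGFRαhi FB it stood at 56.1 and 169.3 CPM in the small intestine and at 17.7 and 56.0 in the colon. Each colonic library was below the small intestinal library of the same number, but the highest colonic value nearly met the lowest small intestinal one. The difference was not called (log2 fold change −1.43 ± 0.78, adjusted p = 0.59). Replicate 2 exceeded replicate 1 by 3.02 times in the small intestine and by 3.17 times in the colon. The replicates also differed in depth and in Cell Ranger version, and the labels name both a 3′ and a 5′ kit without saying which library used which, so the part of these factors in *Gdnf* cannot be told apart.

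In SMC *Gdnf* reached 25.8 and 33.4 CPM in the small intestine and 33.4 and 65.2 in the colon, ranges that met at 33.4 (log2 fold change 0.73 ± 0.46, adjusted p = 0.58). PDGFRαlo CD81- FB held 12.9 and 20.6 CPM in the small intestine against 2.71 and 9.23 in the colon (log2 fold change −1.45 ± 0.65, adjusted p = 0.53), without overlap. CD81+ FB were near 0, at 0.393 to 2.05 CPM, and pericytes had at most 4 UMIs per library. Between 48.8% and 69.0% of all *Gdnf* UMIs of a library came from PDGFRαhi FB. PDGFRαlo CD81- FB supplied 39.9% and 47.7% in the small intestine and 10.3% and 15.7% in the colon, and SMC supplied 6.75% and 1.99% against 31.5% and 14.5%. Both colonic PDGFRαhi clusters carried it, cluster 1 at 22.5 and 67.9 CPM and cluster 4 at 11.4 and 44.3.

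*Gfra2* (chr14:70890120-70979838, plus strand), the receptor component among the 9 genes, was a transcript of the *Pdgfra*-low fibroblasts. In PDGFRαlo CD81- FB it stood at 49.1 and 52.9 CPM in the small intestine and at 24.3 and 23.6 in the colon, with replicate 2 at 1.08 and 0.969 times replicate 1. The log2 fold change of −1.11 ± 0.21 was not called (adjusted p = 0.13). In CD81+ FB the levels of 20.8 and 28.4 CPM in the small intestine and 28.6 and 33.4 in the colon lay side by side (log2 fold change 0.20 ± 0.28, adjusted p = 0.92).

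In PDGFRαhi FB *Gfra2* was low, at 4.01 and 4.83 CPM in the small intestine and 7.26 and 6.58 in the colon (log2 fold change 0.77 ± 0.40, adjusted p = 0.55). This value exceeded that in PDGFRαlo CD81- FB by 1.87 ± 0.31 on the log2 scale (adjusted p = 0.00034). Colonic cluster 4 held 14.7 and 11.2 CPM and cluster 1 held 1.67 and 1.92, below the small intestine. With cluster 1 alone, the difference from the small intestine turned to −1.21 ± 0.53 (adjusted p = 0.58). In the small intestine the cluster of highest *Fgfr2* held 22.8 and 25.3 CPM, less than the 45.8 to 63.0 of the other 2 PDGFRαlo clusters, which is the reverse of the order for *Ntf3*. When only the clusters of high *Fgfr2* were compared, the *Gfra2* difference between the intestines was −0.04 ± 0.26 (adjusted p = 0.98).

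*Sema3a* (chr5:13125414-13602565, plus strand), which encodes a repellent of sensory and sympathetic axons, was almost confined to the colon among classified MSC. All classes together held 345 and 806 UMIs in the colonic libraries against 4 and 3 in the small intestinal ones. Outside the MSC, the endothelial cells of small intestine replicate 1 held 33 UMIs. In SMC it stood at 107 and 179 CPM in the colon, from 205 and 409 UMIs, and at 0 and 1.67 CPM in the small intestine, from 0 and 1 UMI. The pooled ratio was 149.7 (95% counting interval 26.8 to 5923), and the test called it (log2 fold change 7.08 ± 0.73, adjusted p = 0.0075) in every alternative, with an adjusted p of at most 0.026. Beside this, the sum of the 6 SMC markers was also lower in small intestinal SMC and that of the PDGFRαlo CD81- FB markers higher, as given above. The latter was mostly *Adamdec1*, and *Fgfr2*, *Igfbp5*, *Dkk2* and *Shisa2* were also higher. *Edil3*, *Fgf10* and *Pparg* overlapped. *Thy1* and *Stmn2* went the other way, at 0 in small intestinal SMC against 65.2 and 41.1 CPM and 56.9 and 22.3 CPM in colonic SMC. The part of these markers in the difference was not tested.

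In PDGFRαhi FB *Sema3a* had 0 UMIs in both small intestinal libraries and 15 and 19.3 CPM in the colon, which was at least 26.2-fold higher against a floor of 3 counts over the small intestinal group. The call (adjusted p = 0.038) was lost without small intestine replicate 1 (adjusted p = 0.11) or replicate 2 (adjusted p = 0.17). Colonic cluster 4 held 34.8 and 37.4 CPM, and cluster 1 held 0 and 0.958. The 8 CD81+ FB markers summed to 2904 and 1255 CPM in small intestinal PDGFRαhi FB and to 411 and 226 in colonic ones. Most of each sum was *Clec3b*, at 2757 and 1116 CPM against 343 and 167. *Cd34*, *Rspo3* and *C3* were also higher in the small intestine, and *Cd81* was lower. *Grem1*, *Ackr4* and *Pi16* overlapped, with *Grem1* and *Pi16* at 0 in small intestine replicate 1 and *Pi16* also in colon replicate 1. The part of these markers was not tested.

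PDGFRαlo CD81- FB carried 0.199 and 0.0857 CPM of *Sema3a* in the small intestine, from 1 and 2 UMIs, and 5.43 and 7.17 CPM in the colon. The pooled ratio was 62.7 (21.1 to 307.3) and the log2 fold change 5.70 ± 0.59 (adjusted p = 0.044). The call was lost without small intestine replicate 1 (adjusted p = 0.092), without small intestine replicate 2 (adjusted p = 0.29) and without colon replicate 2 (adjusted p = 0.084). It was also lost with a gate on each cell (adjusted p = 0.23) and in the clusters of high *Fgfr2* alone (adjusted p = 0.069). Each of the 4 colonic clusters of the class held between 3.84 and 10.3 CPM. In CD81+ FB 31 colonic UMIs stood against 3 (ratio 9.97, 3.11 to 51.0), and the difference was not called (log2 fold change 2.70 ± 1.37, adjusted p = 0.62).

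Pericytes had no *Sema3a* UMI in any library, which at a floor of 3 counts allows up to 4.03 and 21.6 CPM in the colon and 7.63 and 61.9 in the small intestine. The colonic effect was larger in PDGFRαhi FB than in CD81+ FB by 6.97 ± 2.13 on the log2 scale (adjusted p = 0.039), a fitted value that rests on a small intestinal class at 0 and is no bound. That call was lost without small intestine replicate 1, which left both small intestinal sums at 0 and gave adjusted p = 1.00, without colon replicate 1 (adjusted p = 0.056) and without colon replicate 2 (adjusted p = 0.11). In the tests of a class difference, 3 of 8 genes were called between PDGFRαhi and CD81+ FB (*Sema3a*, *Sema3b* and *Sema3c*, against 6.36% of all genes) and 3 of 9 between PDGFRαhi and PDGFRαlo CD81- FB (*Ntf3*, *Gfra2* and *Sema3b*, against 4.85%).

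**Figure D3:**
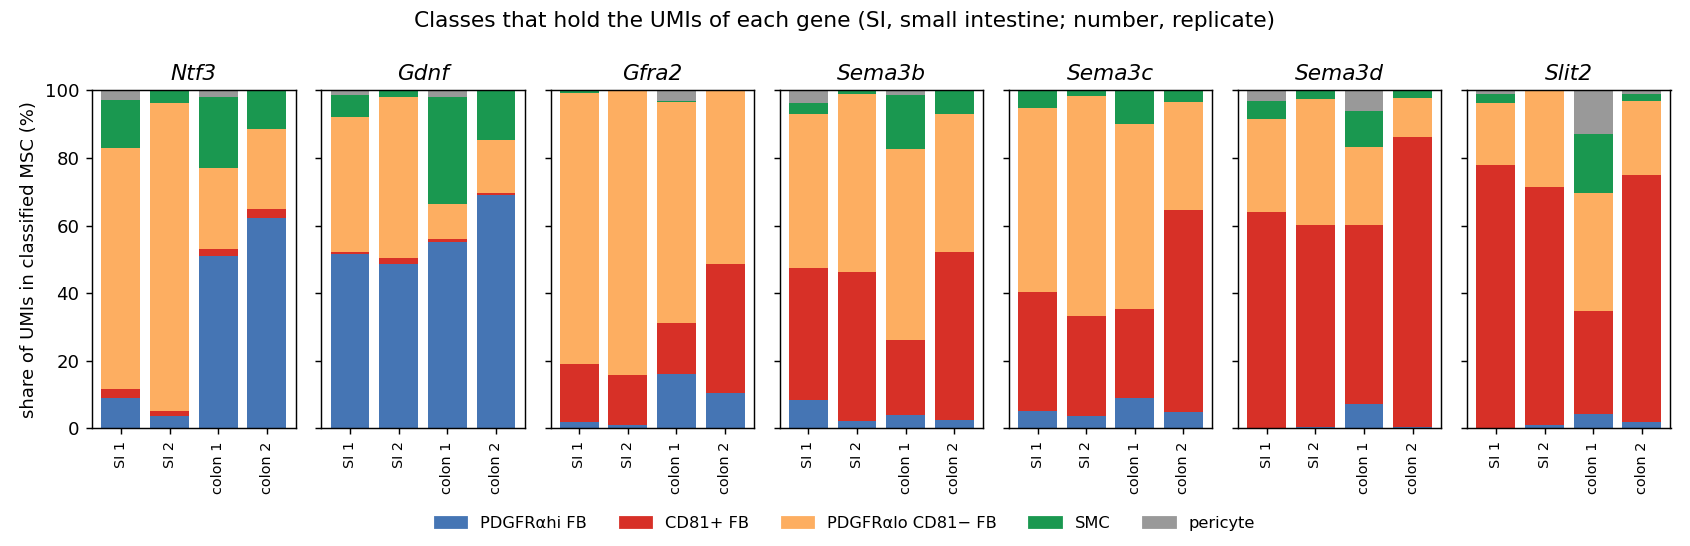
Share of the UMIs of 7 genes (percent of the UMIs in classified MSC, vertical axis) that each class supplied, with 1 bar per library. For *Ntf3* the PDGFRαhi FB supplied 51.0% and 62.3% in the colon against 9.05% and 3.80% in the small intestine.

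*Sema3b* (chr9:107597674-107609229, minus strand), a semaphorin whose product acts through neuropilins, stood at 20.02 and 29.3 CPM in small intestinal CD81+ FB and at 29.2 and 27.5 in colonic ones, which overlapped (log2 fold change 0.06 ± 0.28, adjusted p = 0.99). In PDGFRαhi FB it was scarce, at 7.35 and 4.14 CPM in the small intestine, from 11 and 12 UMIs, and at 1.26 and 0.951 in the colon, from 8 and 12 UMIs. The fold change there was not called (log2 fold change −2.19 ± 0.58, adjusted p = 0.17). With the replicate block, given below with its limits, it was called. It differed from that in CD81+ FB by −2.16 ± 0.52 (adjusted p = 0.0086) and from that in PDGFRαlo CD81- FB by −2.26 ± 0.48 (adjusted p = 0.0029). The first of these calls was lost without small intestine replicate 1 (−1.64, adjusted p = 0.072) and without colon replicate 2 (−2.01, adjusted p = 0.096). The higher *Sema3b* went with the higher CD81+ FB marker sum of small intestinal PDGFRαhi FB given above. That sum was mostly *Clec3b*, while *Cd81* itself was lower in the small intestine. The part of those markers was not tested. In SMC *Sema3b* stood at 9.40 and 6.68 CPM in the small intestine and 16.7 and 15.3 in the colon (log2 fold change 1.02 ± 0.49, adjusted p = 0.43), from 4 UMIs in each small intestinal library. PDGFRαlo CD81- FB held 11.7 to 14.7 CPM in all 4 libraries (log2 fold change 0.15 ± 0.22, adjusted p = 0.91).

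*Sema3c* (chr5:17574281-17730268, plus strand), whose product guides neural crest and endothelial cells, had UMIs in all 3 fibroblast classes and SMC. In CD81+ FB it stood at 129.5 and 121.2 CPM in the small intestine and at 358.7 and 378.8 in the colon, with replicates close together and the intestines far apart. The log2 fold change of 1.42 ± 0.27 missed both limits (adjusted p = 0.096). PDGFRαhi FB went the other way in their means, 37.2 ± 6.36 CPM in the small intestine and 26.4 ± 4.91 in the colon (SD, n = 2), with a log2 fold change of −0.37 ± 0.28 (adjusted p = 0.77). The difference between these classes was −1.84 ± 0.23 (adjusted p = 2.6e-05), and against PDGFRαlo CD81- FB it was −0.81 ± 0.19 (adjusted p = 0.0055), short of the limit of 1.5.

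Colonic PDGFRαhi cluster 4 held 11.7 and 9.59 CPM of *Sema3c* against 43.6 and 36.4 in cluster 1, the opposite order to *Ntf3*, *Sema3a* and *Gfra2*. With cluster 4 alone the class was called lower in the colon (−1.58 ± 0.31, adjusted p = 0.041), and with cluster 1 alone the value was 0.17 ± 0.28 (adjusted p = 1.00). PDGFRαlo CD81- FB held 101.6 and 89.1 CPM in the small intestine and 148.3 and 107.7 in the colon (log2 fold change 0.40 ± 0.23, adjusted p = 0.65). SMC held 84.5 to 115.1 CPM over the 4 libraries (log2 fold change −0.09 ± 0.30, adjusted p = 0.95), and pericytes had 1 UMI in all. Cells scored as plasma cells, outside the MSC, held *Sema3c* at 102.7 and 80.6 CPM in the colon, close to the 108.5 and 84.5 of colonic SMC. In small intestine replicate 1 they had 0 UMIs. Whether stray RNA from other cells added to these levels was not tested.

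*Sema3d* (chr5:12383385-12588948, plus strand), a relative that acts on endothelial and neural crest cells, was found chiefly in CD81+ FB, at 33.0 and 29.7 CPM in the small intestine and 28.6 and 55.4 in the colon. These overlapped (log2 fold change 0.32 ± 0.38, adjusted p = 0.90). Among the 4 larger classes SMC came next in every library, at 16.4 and 15.03 CPM in the small intestine and 4.70 and 5.69 in the colon. The log2 fold change there was −1.56 ± 0.53 (adjusted p = 0.24), from at most 13 UMIs each. With the replicate block, given below with its limits, it was called. In PDGFRαlo CD81- FB *Sema3d* was 7.16 and 6.21 CPM against 2.46 and 3.96 (log2 fold change −1.03 ± 0.39, adjusted p = 0.45), and PDGFRαhi FB held at most 6 UMIs per library.

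*Sema3e* (chr5:14025276-14256689, plus strand), whose product signals through plexin D1, was near the limit of detection. Its highest level in a fibroblast class or SMC was 2.84 CPM, and it was removed by the filter on low counts in each single class. Over all MSC it was tested but not called (log2 fold change 2.86 ± 0.72, adjusted p = 0.25), and neither was the difference between PDGFRαhi and PDGFRαlo CD81- FB (adjusted p = 0.27). In PDGFRαhi FB 37 colonic UMIs stood against 0, at least 2.86-fold higher against the floor of 3 counts. All 37 lay in colonic cluster 4, at 3.66 and 4.25 CPM, and none in cluster 1, as did 95 and 238 UMIs of *Sema3a*, against 0 and 6 in cluster 1. CD81+ FB held 28 UMIs in the colon against 3 (ratio 9.01, 2.78 to 46.3).

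*Slit2* (chr5:47983138-48307733, plus strand) ran opposite to *Sema3a* and was mainly a small intestinal CD81+ FB transcript. In that class it stood at 80.1 and 143.7 CPM in the small intestine, from 204 and 1119 UMIs, and at 4.55 and 7.96 CPM in the colon, from 7 and 73 UMIs. The intestines did not overlap, and the gene was called lower in the colon (log2 fold change −4.17 ± 0.43, adjusted p = 0.027). The call stood in every alternative run for this class, with an adjusted p of at most 0.044. In PDGFRαlo CD81- FB *Slit2* was 9.54 and 19.4 CPM in the small intestine and 1.03 and 1.26 in the colon, a log2 fold change of −3.65 ± 0.49 that missed the threshold (adjusted p = 0.063). DESeq2 called it (adjusted p = 5.9e-07), as did the replicate block, which is given below with its limits. So did edgeR without colon replicate 1, where the colon is 1 library and only the small intestinal pair gives the spread.

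CD81+ FB supplied 77.9% and 70.5% of the *Slit2* UMIs in the small intestine and 30.4% and 73.0% in the colon, the lowest of these from 23 UMIs. PDGFRαhi FB had 0 and 15 UMIs in the small intestine and 1 and 2 in the colon (pooled ratio 21.5, 6.10 to 116.1, small intestine over colon), and all 15 came from replicate 2. SMC had 7 and 1 UMIs in the small intestine and 4 and 2 in the colon, too few for the test. The difference between PDGFRαhi and CD81+ FB in the colonic effect could not be determined at these counts (0.22 ± 6.82, adjusted p = 1.00). The class markers themselves, 8 in all, summed to 12166 and 8997 CPM in small intestinal CD81+ FB and 9770 and 6047 in colonic ones, ranges that overlapped. Of the 8 markers 5 did not overlap between the intestines, with *Cd81*, *Cd34* and *Pi16* higher in both colonic libraries and *C3* and *Rspo3* lower. *Pi16* stood at 155.8 and 108.0 CPM in the small intestine against 489.3 and 629.5 in the colon, *C3* at 3996 and 3824 against 1420.5 and 1399, and *Rspo3* at 163.3 and 188.0 against 68.9 and 61.3. Their part in the *Slit2* difference was not tested.

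The windows before the RefSeq start sites of *Sema3a* and *Slit2* are shown because these 2 genes were called in opposite directions. They lie on the plus strand of GRCm38.p6 at chr5:13396534-13396783, inside the GENCODE *Sema3a* gene, and at chr5:47982905-47983154, across the start of the GENCODE *Slit2* gene, with capitals as before.
Sema3a: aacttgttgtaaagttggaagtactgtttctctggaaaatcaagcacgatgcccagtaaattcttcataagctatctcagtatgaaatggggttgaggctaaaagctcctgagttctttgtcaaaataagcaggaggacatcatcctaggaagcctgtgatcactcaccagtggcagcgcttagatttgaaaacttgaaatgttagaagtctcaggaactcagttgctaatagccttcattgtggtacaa
Slit2: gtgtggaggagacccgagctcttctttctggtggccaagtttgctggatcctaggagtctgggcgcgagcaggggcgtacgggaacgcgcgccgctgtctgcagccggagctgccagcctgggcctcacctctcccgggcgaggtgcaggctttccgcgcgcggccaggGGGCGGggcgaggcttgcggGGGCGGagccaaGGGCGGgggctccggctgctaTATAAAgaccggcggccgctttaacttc
The *Slit2* window held 3 GGGCGG matches and 1 TATAAA, which ends 23 bases before the start. The *Sema3a* window held none of the 4 motifs. Of the 9 genes, 7 had such a window, and *Sema3c* and *Sema3e* also held GGGCGG, 3 and 2 times.

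The genes whose pattern was most like each of the 9 were found among 10140 genes of at least 500 UMIs, by Pearson's r of log2(CPM + 10) over 16 points, the 4 larger classes in 4 libraries. Points of 1 library share its depth and chemistry, so r is a description. *Slit2* was followed most closely by *Rspo2* (r = 0.949), a Wnt amplifier of the intestinal stroma, then by *Art4* (0.923) and *Vldlr* (0.914). *Sema3a* was followed by *Igf2* (0.941), a growth factor, by *Aplp1* (0.938) and by the transcription factor gene *Sall1* (0.924). *Ntf3* was nearest to *Fat4* (0.921), an atypical cadherin gene, *Agt* (0.919), which encodes angiotensinogen, and *Cpxm2* (0.918). *Gdnf* lay nearest to *Cald1* (0.940), which encodes caldesmon, *Psip1* (0.938) and *Wasf2* (0.934), *Gfra2* to *Thbs3* (0.939), *S100a16* (0.927) and *Pid1* (0.925), and *Sema3d* to *Foxp2* (0.937), *1810010H24Rik* (0.912) and *Flrt2* (0.902). *Sema3b* and *Sema3c* shared *Col8a1*, a collagen gene (0.914 and 0.924), beside *Gpc3* (0.916) and *Cbr3* (0.909) for the former and *Trip10* (0.940) and *Adgrd1* (0.938) for the latter. For *Sema3e*, with 81 UMIs in all, no such genes are given.

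The rest of these pathways was read from a fixed list. Of 93 related genes (other neurotrophins, GDNF family ligands, semaphorins, Slits, netrins, ephrins and their receptors), 92 were found. In CD81+ FB 0 of 61 tested rose and 2 fell, against 0.325% and 0.623% of all genes, with a median log2 fold change of −0.21 against −0.01 over all genes tested. In SMC 0 of 39 rose and 3 fell, against 0.932% and 2.12% of all genes, with a median of −0.29 against 0.01. In PDGFRαhi FB 0 of 53 and in PDGFRαlo CD81- FB 0 of 65 were called, with medians of −0.09 and −0.06. At an unadjusted p under 0.05 edgeR gave 12 higher and 7 lower in PDGFRαhi FB, 2 and 12 in CD81+ FB, 9 and 10 in PDGFRαlo CD81- FB and 4 and 13 in SMC. DESeq2 called 6, 2, 5 and 5 genes in these 4 classes. Without the low-count filter edgeR called 8, 5, 4 and 9, and with the replicate block 12, 5, 10 and 12. At most of these settings more of all genes were called too, as given below. No share of all genes stands beside these counts or those at an unadjusted p, so they are not read as a trait of the list. Over all MSC 1 of 74 was called, *Ntrk2*, lower in the colon (adjusted p = 0.0498). The tests of a class difference called 14 of 67 between PDGFRαhi and CD81+ FB, 12 of them with the higher log2 fold change (colon over small intestine) in PDGFRαhi FB, and 14 of 65 between PDGFRαhi and PDGFRαlo CD81- FB, 10 of them with the higher one in PDGFRαhi FB, against 6.36% and 4.85% of all genes. Those shares count both directions together, so the split by direction has no all-gene share beside it.

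*Mdk*, which encodes the heparin-binding growth factor midkine, fell in the colon in both CD81+ FB and SMC. In CD81+ FB it stood at 200.6 and 216.9 CPM in the small intestine and at 61.7 and 43.2 in the colon (log2 fold change −2.15 ± 0.29, adjusted p = 0.041). In SMC it stood at 188.0 and 228.8 CPM against 19.8 and 24.95 (−3.21 ± 0.32, adjusted p = 0.0066). The other 3 genes called between the intestines within a class are named after their values were seen, since they had too few UMIs in a library for the naming rule. *Ntrk2*, which encodes the BDNF receptor TrkB, fell in CD81+ FB from 14.5 and 19.0 CPM to 0.650 and 0.763 (−4.59 ± 0.41, adjusted p = 0.025). *Slit3*, the relative of *Slit2*, fell in SMC from 115.1 and 75.2 CPM to 10.96 and 15.8 (−2.80 ± 0.40, adjusted p = 0.019). *Efna5*, which encodes ephrin-A5, had 21 and 63 UMIs in small intestinal SMC and 0 in both colonic libraries, at least 115-fold lower against the floor. As for *Sema3a* in SMC, the fibroblast marker sum of that class moved with the intestine, and its part was not tested.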

How the data were processed

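Droplet libraries of sorted intestinal MSC were prepared with a 10x 3′ or 5′ kit, which one per library is not given in the sources used here. The authors deposited raw UMI counts per gene and barcode, one matrix per library, made with Cell Ranger (3.0.2 for replicates 1 and 3.1.0 for replicates 2, per the file headers) on mm10, and used Seurat 3. All members and lists were chosen with earlier results of these data known. Barcodes with at least 500 genes, 1000 UMIs and at most 10% mitochondrial UMIs were kept. Scrublet's automatic threshold marked too few doublets, so the highest scores were removed at 0.8% per 1000 barcodes (3505 barcodes), a rule chosen after seeing the data. Cells of each intestine were integrated and clustered in Seurat 5.3.0 (resolution 0.5), without the 9 genes and 93 related genes, and clusters were named by markers. Endothelial, immune, plasma, ICC-scored and unnamed clusters were left out, leaving 26653 of 28711 cells. Among them was small intestinal cluster 6 (297 cells), scored endothelial with no endothelial marker of the list among its 10 leading genes. It was led by *Cxcl9*, *Ccl21a* and *Saa3*. Colonic cluster 7, also led by *Cxcl9*, stayed in PDGFRαlo CD81- FB, so that class was not composed alike in the 2 intestines. Cluster 6 held *Ntf3* at 54.5 and 36.2 CPM and *Gfra2* at 63.6 and 73.5, and adding it to the class was not tested. Small intestinal cluster 7, with an endothelial marker and none of its own class among its 10 leading genes, was also left out. The UMIs of each class were added up within a library and tested in edgeR 4.0.16 (TMM, filterByExpr, robust quasi-likelihood fit) with R 4.3.3. SE is the log2 fold change divided by the square root of F. Groups came from the labels. Each library pooled 3 mice, so p-values measure the spread between 2 pools. Alternatives were DESeq2 1.42.0, no low-count filter, a replicate block, leaving out each library, 1000 genes per cell, resolution 1.0, a marker gate on each cell (3 markers, 2 more than of any other class), clusters of at least 50% of the highest *Fgfr2* level, and subsets of clusters. The 9 genes are always named; related genes are named where called in a class and where both libraries of the higher intestine had at least 50 UMIs, and the 3 most alike genes by r (those of *Sema3e* are not reported here). The edgeR steps were tested on simulated data. Promoter sequences are RefSeq's (GRCm38.p6) and positions GENCODE vM21's.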

Additional observations from a re-analysis of the deposited data

Results flagged for a closer look

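In 6 tests the effect of the intestine differed between 2 classes of the same libraries. Relative to CD81+ FB, the colonic effect in PDGFRαhi FB differed by 6.97 for *Sema3a*, by −1.84 for *Sema3c* and by −2.16 for *Sema3b* on the log2 scale. Relative to PDGFRαlo CD81- FB it differed by 3.22 for *Ntf3*, by 1.87 for *Gfra2* and by −2.26 for *Sema3b*. The values of *Ntf3*, *Sema3c*, *Gfra2* and the second *Sema3b* difference passed the threshold in every alternative run, namely no filter on low counts and leaving out each of the 4 libraries.

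In 6 cases a named cell class outside the MSC, with at least 50 cells and over 3 UMIs of the gene in that library, exceeded every MSC class of the same library. Endothelial cells, which the sort on CD31 should have removed, held *Sema3a* at 20.6 CPM in small intestine replicate 1 (33 UMIs in 21 of 355 cells), where the highest MSC class had 1.18. In colon replicate 1 they held *Sema3b* at 49.6 CPM (66 UMIs in 7 of 239 cells, against 29.2), *Sema3d* at 46.6 CPM (62 UMIs, against 28.6) and *Sema3e* at 3.005 CPM (4 UMIs, against 1.58, with a counting interval of 0.819 to 7.69). In small intestine replicate 1 endothelial *Sema3d* was 41.2 CPM against 33.0. In colon replicate 2 a cluster scored as interstitial cells of Cajal, led by *Mptx1* and *Ptn* with *Kit* not among its leading genes, held *Slit2* at 33.2 CPM (16 UMIs in 143 cells) against 7.96. These levels rest on 1 library each, apart from *Sema3d*, and were not tested. Smaller or unnamed groups of cells also exceeded the MSC in places, such as 17 unnamed cells of colon replicate 1 with *Sema3c* at 436.3 CPM (83 UMIs, against 358.7) and *Sema3a* at 115.7 CPM (22 UMIs, against 107).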

How the results depend on the processing

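DESeq2 with its size factors, no low-count filter and the replicate block called more genes between the intestines. PDGFRαhi FB went from 199 genes to 587, 701 and 978, CD81+ FB from 108 to 257, 470 and 530, PDGFRαlo CD81- FB from 148 to 443, 351 and 705, and all MSC from 44 to 541, 182 and 894. SMC went from 285 to 661 without the filter and 690 with the block. Colonic cluster 1 alone gave 87 genes in PDGFRαhi FB and cluster 4 alone 826, both chosen after seeing the data. The gate on each cell gave 59 in CD81+ FB, 97 in PDGFRαlo CD81- FB and 96 in SMC. Leaving out 1 library gave 0 to 643 genes in PDGFRαhi FB, 26 to 103 in CD81+ FB, 0 to 239 in PDGFRαlo CD81- FB, 92 to 358 in SMC and 0 to 0 over all MSC, where 800 to 1422 had an unadjusted p under 0.05. It gave 504 to 785 genes for the difference between PDGFRαhi and CD81+ FB and 443 to 679 for that against PDGFRαlo CD81- FB. Fewer libraries enter these fits, and the causes of the other shifts were not tested.

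No value that was called changed sign. With cluster 1 alone, *Gfra2* (−1.21) and *Sema3c* (0.17) turned in PDGFRαhi FB. With the gate, *Ntf3* (−1.55) and *Gfra2* (−0.13) turned in CD81+ FB and *Sema3c* (0.28) in SMC, and *Slit2* in PDGFRαlo CD81- FB fell below the low-count filter. With clusters of high *Fgfr2*, *Sema3b* turned in PDGFRαlo CD81- FB (−0.089). Leaving out 1 library gave ranges across 0 for *Sema3b* (−0.12 to 0.34) and *Sema3d* (−0.28 to 0.71) in CD81+ FB, for *Ntf3* (−0.66 to 0.11) and *Sema3c* (−0.28 to 0.079) in SMC and for *Ntf3* over all MSC (−0.29 to 0.27). Including small intestinal cluster 7, resolution 1.0 and 1000 genes per cell changed no call.

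The replicate numbers pair 2 libraries per intestine, and no label says what a number shares. Deviations of same-numbered libraries from their group means correlated over genes at r = 0.59 to 0.80. Under the block, *Ntf3* (1.98, adjusted p = 2.0e-23) and *Sema3b* (−2.14) in PDGFRαhi FB, *Slit2* in PDGFRαlo CD81- FB (−3.71), *Sema3d* in SMC (−1.55) and *Sema3a* (6.79) and *Slit2* (−4.36) over all MSC became called, and *Ntf3* over all MSC turned to −0.012. A block fit on 4 libraries leaves almost no replicate spread of a single gene to measure. Its p-values therefore rest mostly on variance pooled over genes.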

Other observations

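Endothelial *Ntf3* stood at 68.4 CPM in colon replicate 1 and at 33.7 CPM in small intestine replicate 1. Cells scored as plasma cells held it at 69.4 CPM in colon replicate 1 and 45.6 in colon replicate 2, and had 0 UMIs in small intestine replicate 1. Pericytes, the class with the fewest cells, held *Ntf3* in replicates 1 at 35.6 CPM in the small intestine (14 UMIs) and 32.3 in the colon (24 UMIs). In replicates 2 they held 1 UMI each, below the floors of 61.9 CPM in the small intestine and 21.6 in the colon.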
